A study of Rattus norvegicus with 6 samples.

Results

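The plasminogen activator system was examined through 6 genes, chosen by name: the activators Plau and Plat, the urokinase receptor Plaur, and the serpin inhibitors Serpine2, Serpinb2 and Serpinf2. All 6 were found, once each, among the 30562 rat genes of the count table. Plasminogen activators cut circulating plasminogen into plasmin, a serine protease that dissolves fibrin, cleaves matrix proteins and activates latent matrix metalloproteinases. The receptor holds urokinase at the cell surface, and the serpins trap either the activators or plasmin itself. In cartilage-like tissues the balance of activators and serpins is one of the known controls on pericellular proteolysis.

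The study asked how an intradiscal nanovector changes gene expression in injured discs. By the study's methods, the discs came from male Sprague–Dawley rats, recorded as wild type. Their tail disc had been punctured with an 18 G needle at an age of 12 weeks, so the controls carry the injury too. Injections of 10 μL began 24 h later and held either PBS in the control group or AF-PTK@LEV@SPP1, liposomes fused with bacterial outer membrane vesicles that bear an annulus fibrosus binding peptide on a linker cut by reactive oxygen species and carry siRNA against Spp1 at 1 mg/kg. The treatment is described there as lasting 8 weeks, whereas the sample records give 14 days, an untreated control, and macrophages sorted from digested mouse discs. None of the 6 libraries is labelled as an uninjured disc or as carrier without the siRNA, so the siRNA and its carrier cannot be told apart.

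The 3 control libraries held 17942989, 16565291 and 17489851 counts, and the 3 libraries with the AF-PTK@LEV@SPP1 label held 17074981, 15560728 and 17855184. Levels are given as normalized CPM, which sets the counts of a gene against its library total after scaling by TMM (trimmed mean of M-values). A gene with 3 counts, taken as the floor of detection for counting error alone, stood at 0.154 to 0.193 normalized CPM. Transcript lengths were not used, so levels are compared between libraries and not between genes.

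Control replicates 2 and 3 were nearly the same library by their values. Over 14393 genes their counts varied 1.33 times as much as counting noise, and 16 genes (0.111%) differed, whereas 39.6% to 56.6% of genes differed in the other pairs within a group. The study describes independent animals. The mean of the pair was therefore counted once, which leaves n = 2 distinct control samples against n = 3, and the edgeR test of each member is given for all 6 libraries and again with the counts of the pair summed. An exact permutation test of 3 samples against 2 cannot go below a two-sided p of 0.1.

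Markers of disc matrix were abundant in every library, and none of the 5 was called by edgeR, DESeq2 or limma-voom, or had an unadjusted p under 0.05. The summed level of 5 markers of disc matrix cells (Acan, Col2a1, Col1a1, Sox9 and Comp) was 49537, 73770.2 and 73969 normalized CPM in control replicates 1, 2 and 3, and 100013, 71316 and 92705 in libraries with the AF-PTK@LEV@SPP1 label. The 11 macrophage and monocyte markers summed to 711 to 3142 normalized CPM across the 6 libraries. Transcripts of muscle and red cells were also present, with Acta1 and Hba-a1 leading their lists, so cells other than macrophages had given RNA to the libraries. Spp1, the siRNA target, had 8122 (control replicate 1), 4411 and 4417 normalized CPM against 8054, 6903 and 8461. It was thus not lower under the treatment label (log2 fold change 0.47, SE 0.31, edgeR quasi-likelihood adjusted p = 0.317, and 0.628 with the pair summed), and directions below are therefore given relative to the labels.

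Plau, Plat, Plaur and Serpine2, that is both activators, the receptor and the inhibitor protease nexin, fell in libraries with the AF-PTK@LEV@SPP1 label. By edgeR, at an adjusted p under 0.05, 4 of the 5 members that passed the filter on low counts were lower, beside 9.93% of the 15042 genes tested. None of the 5 was higher, beside 8.2% of all genes, and none was higher at an unadjusted p under 0.05 or in DESeq2 or limma-voom. The median log2 fold change of the 5 was -1.26, which is the value of Serpinf2, a gene with 71 reads in all that was not called, against 0.05 for all genes tested. With the control pair summed, 2 members were called lower, Plaur and Serpine2, beside 2.57% of 15537 genes, and none was higher, beside 1.13%. For 4 members no library of one group overlapped the other group, as was also the case for 42.3% of all genes tested. In bulk tissue, fewer cells of a type and less RNA per cell cannot be told apart.

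**Figure D1:**
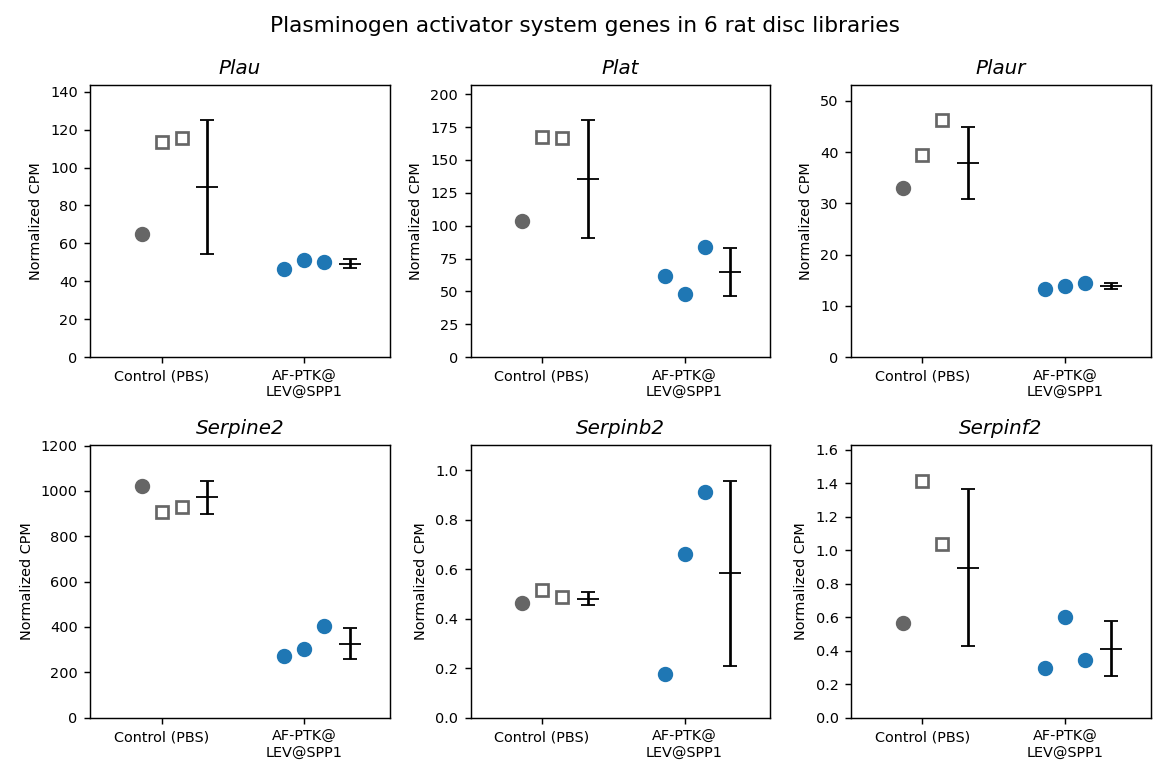
Normalized CPM of the 6 genes in each library, with grey symbols for the 3 control libraries (open squares are the near-identical replicates 2 and 3) and blue circles for the 3 libraries with the AF-PTK@LEV@SPP1 label; horizontal bars and whiskers are the mean and SD over the distinct samples (n = 2 and n = 3). Plau, Plat, Plaur and Serpine2 are lower in every library labelled AF-PTK@LEV@SPP1, with control replicate 1 the lowest control for the first 3, while Serpinb2 and Serpinf2 stay under 2 normalized CPM and overlap.

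Plau encodes urokinase, the activator that works mainly at the cell surface. The gene (ENSRNOG00000010516) lies on chromosome 15 from 3456232 to 3462775 on the minus strand in the authors' annotation, whose build is not settled by the sources used here. Its level was 64.7 normalized CPM in control replicate 1 and 114 and 116 in replicates 2 and 3, against 46.7, 51.0 and 50.4 in libraries with the AF-PTK@LEV@SPP1 label. The latter were tightly grouped and all lay below the controls, but control replicate 1 stood nearer to them than to the other controls. Mean levels were 89.6 ± 35.2 (SD, n = 2 distinct samples) and 49.4 ± 2.35 (SD, n = 3; exact permutation test, two-sided, p = 0.1). The log2 fold change was -0.99 (SE 0.23, 95% interval -1.54 to -0.44, adjusted p = 0.0329 in edgeR's quasi-likelihood test). The call was lost with the control pair summed (log2 fold change -0.87, adjusted p = 0.117), and it was also lost without any 1 of the libraries other than control replicate 1 (adjusted p from 0.0618 to 0.118). Without control replicate 1 the log2 fold change was -1.22 (adjusted p = 0.00162).

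Plat encodes tissue-type plasminogen activator, the activator best known for fibrin-bound plasminogen and made by endothelial and mesenchymal cells. The gene (ENSRNOG00000019018) lies on chromosome 16 from 69240585 to 69268223 on the minus strand. Control replicates 1, 2 and 3 had 103, 167 and 166 normalized CPM, and libraries with the AF-PTK@LEV@SPP1 label had 62.1, 48.1 and 84.1. The groups did not overlap, and the spread was wide in both, with means of 135 ± 44.9 (SD, n = 2) and 64.8 ± 18.1 (SD, n = 3; exact permutation test, two-sided, p = 0.1). Plat was thus 2.09-fold lower by the means, and its log2 fold change was -1.17 (SE 0.27, 95% interval -1.82 to -0.52, edgeR adjusted p = 0.0336). With the pair summed the log2 fold change was -1.07 and the adjusted p 0.119. The call was also lost without control replicate 2 or 3 or without AF-PTK@LEV@SPP1 replicate 1 or 2 (adjusted p from 0.0641 to 0.120).

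Plaur encodes the glycolipid-anchored receptor that concentrates urokinase on macrophages, neutrophils, osteoclasts and migrating cells. The gene (ENSRNOG00000037931) lies on chromosome 1 from 80050324 to 80068595 on the plus strand. It was counted at 641, 614 and 757 reads in control replicates 1, 2 and 3, and at 227, 229 and 254 in libraries with the AF-PTK@LEV@SPP1 label. As normalized CPM these were 32.9, 39.5 and 46.2 against 13.3, 13.8 and 14.5. Every control library had more than double the level of every library with the treatment label. The means were 37.9 ± 7.03 (SD, n = 2) and 13.9 ± 0.567 (SD, n = 3), a 2.73-fold difference (exact permutation test, two-sided, p = 0.1). The log2 fold change of -1.51 (SE 0.14, 95% interval -1.85 to -1.17) had an adjusted p of 0.00317 in edgeR, and 0.0221 with the pair summed. Across 15 other settings it ranged from -1.63 to -1.39 and kept its call in all of them.

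Serpine2 encodes protease nexin, a serpin of fibroblasts and cartilage cells that inhibits thrombin, urokinase and tissue-type plasminogen activator. The gene (ENSRNOG00000015461) is annotated on chromosome 9 from 81124804 to 81188826 on the minus strand. It took 19921, 14134 and 15223 reads in control replicates 1, 2 and 3, and 4648, 4995 and 7125 in libraries with the AF-PTK@LEV@SPP1 label, which is 1023, 909 and 929 normalized CPM against 273, 301 and 406. Control replicate 1, the lowest control for Plau, Plat and Plaur, was the highest for this gene. The mean fell from 971 ± 73.4 (SD, n = 2) to 327 ± 70.0 (SD, n = 3), 2.97-fold (exact permutation test, two-sided, p = 0.1). The log2 fold change was -1.55 (SE 0.18, 95% interval -1.98 to -1.11, edgeR adjusted p = 0.00563), and -1.58 with the pair summed (adjusted p = 0.0345). It kept its call in the 15 other settings, from -1.73 to -1.46.

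The remaining serpins were close to the limit of detection. Serpinf2 encodes the main plasma inhibitor of plasmin, a liver product, and lies on chromosome 10 from 60272400 to 60281243 (ENSRNOG00000003233, minus strand). It had 11, 22 and 17 reads in control replicates 1, 2 and 3 and 5, 10 and 6 in libraries with the AF-PTK@LEV@SPP1 label. The groups overlapped as normalized CPM, since the lowest control stood at 0.565 and the highest library of the other group at 0.603. It passed the filter, and its log2 fold change of -1.26 (SE 0.49, 95% interval -2.44 to -0.085) was not called (edgeR adjusted p = 0.118, and 0.272 with the pair summed). Serpinb2, an intracellular and secreted inhibitor of urokinase known from activated macrophages, lies on chromosome 13 from 23541400 to 23550408 (ENSRNOG00000002460, plus strand) and had 9, 8 and 8 reads against 3, 11 and 16. It did not pass the filter of the test on 6 libraries. Fitted without a filter, its log2 fold change was 0.21 (SE 0.60, edgeR adjusted p = 0.840), which at this depth leaves changes of either sign possible. With the pair summed it passed the filter, at a log2 fold change of 0.26 (edgeR adjusted p = 0.843).

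Ratios of reads within a library need no scaling of library size. There were 1.97, 2.88 and 2.50 Plau reads per Plaur read in control replicates 1, 2 and 3, and 3.50, 3.69 and 3.48 in libraries with the AF-PTK@LEV@SPP1 label. All the latter were higher than every control, and their mean was 1.53-fold that of the distinct control samples. Plau reads per Serpine2 read were 0.0632, 0.125 and 0.124 in the controls and 0.171, 0.169 and 0.124 in libraries with the AF-PTK@LEV@SPP1 label. Here replicate 1 was the lowest control, and the last library with the treatment label lay within the range of the controls. Plat reads per Serpine2 read were 0.101, 0.184 and 0.179 against 0.227, 0.160 and 0.207, and Plau reads per Plat read were 0.626, 0.678 and 0.694 against 0.752, 1.06 and 0.599. Both of these ratios overlapped between the groups. No test was applied to the ratios.

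Beyond these genes, 27 others that act with the system were listed by role, of which 26 had a row and 18 passed the filter. At an adjusted p under 0.05 in edgeR, 6 of the 18 were lower and 1 was higher, beside 9.93% and 8.2% of all genes. Their median log2 fold change was -0.17. With the control pair summed, 2 of 19 were lower, Serping1 and Tfpi2, beside 2.57% of all genes in that fit. None was higher at an adjusted p under 0.05, beside 1.13%, and 1 was at an unadjusted p under 0.05. The other inhibitors held 3 of the 6 lower genes, the plasminogen receptors and cofactors held 2, and the substrates held 1.

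Among the other inhibitors, Tfpi2 showed the widest difference. It encodes a secreted Kunitz-type inhibitor of plasmin and trypsin-like proteases that binds to extracellular matrix. Control replicates 1, 2 and 3 had 463, 515 and 486 reads and libraries with the AF-PTK@LEV@SPP1 label 60, 53 and 51, or 27.6 ± 5.39 (SD, n = 2) and 3.21 ± 0.311 (SD, n = 3) normalized CPM. The log2 fold change was -3.17 (SE 0.17, edgeR adjusted p = 0.00112, and 0.0119 with the pair summed). Serping1, the C1 inhibitor, which also blocks kallikrein and plasmin, took the most reads of this role and fell from 370 ± 68.2 (SD, n = 2) to 160 ± 19.1 normalized CPM (SD, n = 3; log2 fold change -1.14, edgeR adjusted p = 0.00835, and 0.0393 with the pair summed). A2m, a broad protease trap, had 87.8, 89.1 and 91.6 normalized CPM in the controls and 24.5, 36.7 and 11 in libraries with the AF-PTK@LEV@SPP1 label. Its log2 fold change of -1.89 had an edgeR adjusted p of 0.0266, which became 0.0917 with the pair summed. Serpini1, a brain serpin that targets tissue-type plasminogen activator, had a log2 fold change of 0.83 (SE 0.47) and was not called (edgeR adjusted p = 0.248).

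The subunits of the annexin A2 complex, which binds plasminogen and its tissue-type activator at the cell surface, were both lower. S100a10 had 417, 566 and 548 normalized CPM in control replicates 1, 2 and 3 and 270.5, 167 and 239.9 in libraries with the AF-PTK@LEV@SPP1 label. Anxa2 had 847, 1079.8 and 1092 against 539, 349 and 504. For both genes the highest library with the treatment label lay well under the lowest control, with log2 fold changes of -1.18 (SE 0.22) and -1.12 (SE 0.21), each at an adjusted p of 0.0192 in edgeR. These calls were lost with the pair summed (adjusted p = 0.0827 and 0.0846). Plgrkt and Eno1 were not called: the plasminogen receptor Plgrkt had a log2 fold change of -0.31 (SE 0.14, edgeR adjusted p = 0.173) and Eno1, a glycolytic enzyme that also binds plasminogen, one of 0.05 (SE 0.24, edgeR adjusted p = 0.906). Clec3b, encoding the plasminogen-binding tetranectin, had 33.3, 7.72 and 8.06 normalized CPM in the controls and 52.9, 56.7 and 60.8 in libraries with the AF-PTK@LEV@SPP1 label. Control replicate 1 lay between the other controls and that group. The gene was not called in edgeR (log2 fold change 1.79, SE 0.59, adjusted p = 0.0805) and was called higher by DESeq2 and limma-voom.

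None of the 3 clearance receptors was called in edgeR, by DESeq2 or by limma-voom, and 1 of them, Mrc2, was higher at an unadjusted p under 0.05. Lrp1, the endocytic receptor that removes complexes of activators and serpins, took the most reads of this role and stood at 791, 1372 and 1389 normalized CPM in control replicates 1, 2 and 3 and at 1155, 761 and 821 in libraries with the AF-PTK@LEV@SPP1 label. Its log2 fold change was -0.38 (SE 0.28, 95% interval -1.05 to 0.30, edgeR adjusted p = 0.366). Vldlr and Mrc2, the collagen receptor that associates with the urokinase receptor, had log2 fold changes of 0.33 each (edgeR adjusted p = 0.255 and 0.104).

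Among substrates, the growth factors of the platelet-derived family moved in opposite directions. Pdgfc, whose latent form is activated by tissue-type plasminogen activator, fell from 49.8 ± 2.92 (SD, n = 2) to 30.1 ± 5.95 normalized CPM (SD, n = 3), a log2 fold change of -0.71 (SE 0.15, edgeR adjusted p = 0.0277). Pdgfd, whose latent form is activated by urokinase, rose from 15.6 ± 3.22 (SD, n = 2) to 24.7 ± 4.45 (SD, n = 3), a log2 fold change of 0.73 (SE 0.18, edgeR adjusted p = 0.0426). Both calls were lost with the pair summed (adjusted p = 0.0953 and 0.15). A gene on the same strand overlaps Pdgfd in the annotation and took 93 reads to its 2037. Hgf, a growth factor of mesenchymal cells that urokinase can activate, had a log2 fold change of -0.90 (SE 0.30, edgeR adjusted p = 0.0842), and Vtn, encoding vitronectin, which binds the urokinase receptor, one of -0.03 (SE 0.35, edgeR adjusted p = 0.955).

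The zymogen and the fibrinogen chains are supplied to plasma by the liver, and their reads were few. Plg, encoding plasminogen itself, had 7, 3 and 4 reads in control replicates 1, 2 and 3 and 1, 11 and 3 in libraries with the AF-PTK@LEV@SPP1 label. Fga and the protease gene Klkb1 had 0 reads in all 6 libraries, as did the serpin gene Serpina5, which allows up to the floor of 3 counts in each. Fgb had 1 read in all. Fgg had 6, 28 and 50 reads in the controls against 0, 1 and 1, groups that did not overlap. It did not pass the filter of the main test. DESeq2 called it lower, as did edgeR without a filter, with a filter of 50 counts in all, and without control replicate 1. Each of these fits counts the near-identical control replicates 2 and 3 as separate samples. With the pair summed, Fgg did not pass the filter and has no value. Of the proteases upstream, St14, encoding matriptase, took the most reads and was not called (log2 fold change -0.03, SE 0.27, edgeR adjusted p = 0.95), while Hpn had 10, 2 and 8 against 13, 14 and 13 reads and was not called (edgeR adjusted p = 0.189).

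**Figure D2:**
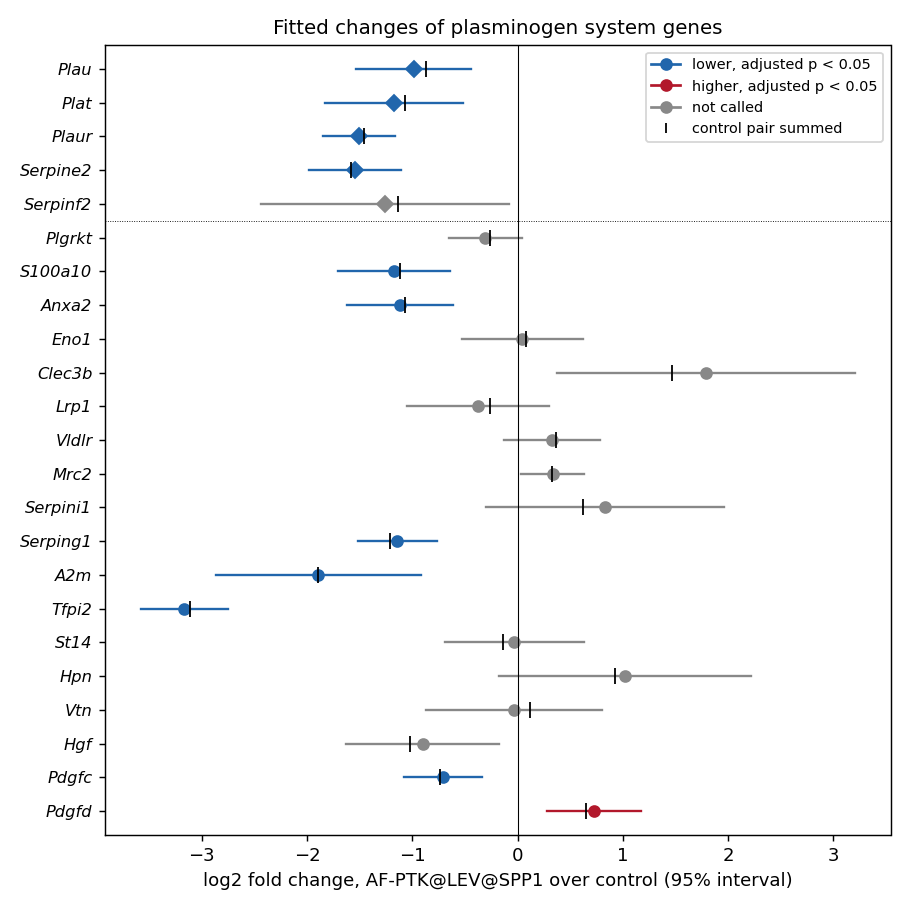
Log2 fold changes of the 5 tested members (diamonds, above the dotted line) and 18 other genes of the system (circles) in libraries with the AF-PTK@LEV@SPP1 label over controls, with 95% intervals from edgeR that are not adjusted for the number of genes; blue and red mark genes called lower and higher, grey marks genes not called, and black ticks give the value with control replicates 2 and 3 summed. The intervals come from the fit on all 6 libraries, which counts the near-identical control replicates 2 and 3 as separate samples. Tfpi2 lies farthest to the left at -3.17, and Pdgfd is the only gene called higher.

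Cell type markers were read beside these genes, since several members are made by particular cells. Osteoclast markers (Acp5, Ctsk, Ocstamp and Calcr) were lower in 3 of 4 cases in edgeR, and in 2 with the pair summed. Their summed level was 5269, 3326 and 3338 normalized CPM in control replicates 1, 2 and 3 and 806, 736.5 and 475 in libraries with the AF-PTK@LEV@SPP1 label, with Ctsk, the osteoclast collagenase cathepsin K, leading (log2 fold change -2.82, edgeR adjusted p = 0.00586). None of the 4 was at 0 in every library. Their part in the fall of Plaur and the other members was not tested.

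Of the 11 macrophage and monocyte markers, 3 were lower, Cd68, Cd14 and Mrc1, with log2 fold changes of -1.90, -1.85 and -0.90 (edgeR adjusted p = 0.00409, 0.00112 and 0.0160). Cd163 went the other way (log2 fold change 1.3, edgeR adjusted p = 0.0892) and was called higher by DESeq2, which also called Csf1r lower. Cd68 and Cd14 kept the call with the pair summed. The median of the list was -0.72, and its sum was 3142, 2129.8 and 2106 normalized CPM in control replicates 1, 2 and 3 against 711, 1972 and 1991, with Lyz2 leading. The part of these cells in the result was not tested.

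Endothelial markers, listed because this cell type makes Plat, were lower in 3 of 6 cases (Pecam1, Cdh5 and Vwf, log2 fold changes -0.73, -0.47 and -0.60, edgeR adjusted p = 0.0295, 0.0452 and 0.0167), and by the pair summed none was called, although all 3 had an unadjusted p under 0.05 (adjusted p = 0.114, 0.154 and 0.0762). Kdr, Tek and Emcn had log2 fold changes between -0.01 and 0.03. The list, led by Pecam1, summed to 498, 601 and 585 normalized CPM in the controls and to 375, 438 and 435 in libraries with the AF-PTK@LEV@SPP1 label. The part of endothelium in the Plat difference was not tested.

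Neutrophil, red cell and muscle transcripts followed another pattern, being high in replicates 2 and 3 labelled AF-PTK@LEV@SPP1 and not in the first. The 8 neutrophil markers, led by S100a9, summed to 1125, 184 and 174 normalized CPM in control replicates 1, 2 and 3 and to 289, 2868 and 3953 in libraries with the AF-PTK@LEV@SPP1 label. The 5 erythroid markers, led by Hba-a1, summed to 2374, 3185 and 3276 against 2497, 20396 and 14020.3, and 4 muscle markers, led by Acta1, to 773, 991 and 1007 against 790.1, 8146 and 2085. For every gene of these 3 lists the groups overlapped, and none was called in edgeR, where 5 erythroid, 2 muscle and 0 neutrophil markers were higher at an unadjusted p under 0.05. DESeq2 called 5 erythroid markers and 1 muscle marker (Ckm) higher, and limma-voom called none. Their part in the result was not tested.

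Adipocyte markers were higher in 2 of 6 cases in edgeR, Lep and Lipe (edgeR adjusted p = 0.0403 and 0.0150, and 0.139 and 0.0748 with the pair summed), with a summed level, led by Adipoq, of 272, 55.97 and 53.8 normalized CPM in control replicates 1, 2 and 3 and 572, 1034 and 431 in libraries with the AF-PTK@LEV@SPP1 label. Of 4 tested markers of nucleus pulposus and notochord, Krt18 was higher (log2 fold change 3.25, edgeR adjusted p = 0.0205, and 0.0919 with the pair summed), and the list, led by Krt8, summed to 459, 101 and 96.8 against 2523, 859 and 968. DESeq2 called 5 adipocyte markers higher (Adipoq, Plin1, Lep, Cidec and Lipe) and limma-voom 3 (Plin1, Cidec and Lipe), whereas edgeR with the pair summed called 0 of the 6, of which 4 were higher at an unadjusted p under 0.05. Of the notochord list, DESeq2 called Tbxt and Krt8 higher as well as Krt18, and limma-voom Krt18 alone. In the sums of both lists control replicate 1 lay between control replicates 2 and 3 and the other group, as it did for Plau and Plat. The 5 annulus and tendon markers, led by Fmod, summed to 2150.2, 4139 and 4168 against 4749, 3130.1 and 4786, with no gene called in edgeR or limma-voom, 1 higher at an unadjusted p under 0.05, and Mkx called higher by DESeq2. Hepatocyte markers summed to 0.360 to 1.94 normalized CPM, led by Apoa1, and none of them passed the filter. The part of the adipocyte, notochord and annulus lists in the members' values was not tested.

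The promoter windows of 5 members were read from RefSeq sequences of the GRCr8 build, which span 250 bases before to 50 after the annotated start. Both strands were searched for an AP-1 motif (TGANTCA), a cyclic AMP response element (TGACGTCA) and the NF-κB consensus. Plaur had 1 AP-1 match whose first base lies 83 bases before the start, and Serpinb2 had 1 at 189 bases, as 7.33% of 33469 promoters had at least 1. No other match to the 3 motifs was found in these 5 windows, while 1.83% of all promoters had the response element and 4.18% the NF-κB consensus. A match describes letters only and says nothing of binding in these discs.

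The 100 bases that end just before the start are shown for the members with a window that edgeR called lower on all libraries. Of these, Plau lost the call with the control pair summed. Their windows differ in composition. Capitals mark the AP-1 match. The windows are chr1:89181263-89181362 on the plus strand for Plaur, chr15:3511988-3512087 on the minus strand for Plau and chr9:88637203-88637302 on the minus strand for Serpine2. Over the 250 bases before the start, G and C made up 51.2% in Plaur, 60.0% in Plau and 76.8% in Serpine2.
Plaur: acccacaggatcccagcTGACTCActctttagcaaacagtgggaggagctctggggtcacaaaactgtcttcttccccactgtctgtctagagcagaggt
Plau: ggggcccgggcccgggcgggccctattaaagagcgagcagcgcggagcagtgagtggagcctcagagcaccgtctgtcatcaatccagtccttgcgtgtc
Serpine2: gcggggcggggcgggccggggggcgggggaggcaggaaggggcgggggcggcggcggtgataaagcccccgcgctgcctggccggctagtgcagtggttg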

How the data were processed

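Bulk RNA of rat tail discs was read in 6 libraries, 3 per group. The authors deposited raw counts, whole numbers of reads per Ensembl gene, without normalization. The submitters' processing notes name FastQC, Trimmomatic, HISAT2, featureCounts and DESeq2 without versions, and the mouse build mm10, although the identifiers are those of rat genes. The use of strand and of shared reads is not given in the sources used here. Columns named AFPTK were matched to samples by treatment name and number. The columns named IVD, which lack that name, were taken as the controls and matched by number.

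All genes were fitted with edgeR 4.0.16 (R 4.3.3), TMM scaling, filterByExpr at a minimum count of 10, the quasi-likelihood test and Benjamini-Hochberg adjustment over the 15042 genes kept. The common biological coefficient of variation was 0.269. SE is the log2 fold change over the square root of F. Means ± SD and exact permutation tests (on log2 of normalized CPM + 0.5) used the 5 distinct samples. The script was tested on simulated data. Named genes were the members, called genes of the role lists with the most counted gene per role (transcript lengths were not used), and leading or absent cell markers. Other genes of the lists, called markers included, were named after their values were seen. Members and lists were chosen with earlier results of these data known. Some genes of the system, Hrg and the markers Krt19 and Mylpf were not analysed here. Alternatives were DESeq2 1.42.0, limma-voom (limma 3.58.1), other scalings and filters, a replicate block, the control pair summed and each library left out.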

Additional observations from a re-analysis of the deposited data

How the results depend on the processing

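Plaur and Serpine2 kept direction and call in the 15 alternatives run for single genes, Serpinf2 stayed uncalled (log2 fold change -1.63 to -0.94), and none of the 5 members with a value in the main test reversed. Serpinb2 has no value in that test to set the alternatives against. Plau and Plat lost the call in a fit blocked on replicate number (-0.94 and -1.17, adjusted p = 0.0760 and 0.0828) and with control replicates 2 and 3 summed (-0.87 and -1.07), where fewer samples enter. The cause of the loss under the block was not tested. With 1 library left out, Plau ranged from -1.22 to -0.86 and Plat from -1.40 to -0.995, and the number of members called lower ranged from 2 to 4, with 2 without control replicate 2 or 3 or AF-PTK@LEV@SPP1 replicate 1 or 2. It was 2 with the block and 2 with the pair summed. Of the other genes of the system, 2 were lower with the block and 2 with the pair summed, and 2 to 7 with 1 library left out. Serping1 and Tfpi2 kept the call in all 15, while S100a10, Anxa2, A2m and Pdgfc lost it in 5 each and Pdgfd in 9. The number called higher, 1, was 2 in DESeq2 and 2 in limma-voom (Clec3b beside Pdgfd), and 0 with library totals, without a filter, with the block, with the pair summed and above a log2 fold change of 1 (it was 3, 2, 2 and 1 at an unadjusted p under 0.05 in the first 4 of these), and 0 to 3 with 1 library left out. Across all genes, 1233 were called higher and 1494 lower. DESeq2 called 1851 higher and 2087 lower, the block 307 higher and 434 lower, the summed pair 175 and 400, a log2 fold change above 1 left 633 and 695, and leaving out 1 library gave 169 to 1790 higher and 393 to 1955 lower. Other scalings moved the median of all genes by at most 0.04 (log2). A total of 71 reads limits Serpinf2, and 55 limit Serpinb2. Deviations from the group means correlated at -0.33, -0.28 and -0.076 between libraries of the same number. Since control replicates 2 and 3 are near-identical, these values cannot show whether replicate numbers pair the libraries. The exact test cannot pass 0.05 at this number of samples.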

Other observations

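The genes whose levels ran most nearly parallel to each member were sought among 9623 named genes whose mean log2 CPM was 3 or more, by Pearson r of log2 normalized CPM over the 5 distinct samples. For Plaur these were Ccdc71l and Sorcs2 (Pearson r = 0.999 for both), and 89 genes exceeded an r of 0.99. For Serpine2 they were Ahr, the aryl hydrocarbon receptor, and Lancl2 (r = 0.999 for both), with 30 genes above 0.99. For Plau they were Nsdhl, an enzyme of cholesterol synthesis, and Rbms3 (r = 0.999 for both), with 24 above 0.99, and for Plat Uprt and Fam3c (r = 0.998 for both), with 12. For Serpinf2, with 71 reads in all, they were F11r and Klhdc2 (r = 0.997 and 0.9901). With 5 points in 2 groups, any gene that differs between the groups tends to a high r, so these values describe the libraries and carry no test.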
